A study of Mus musculus with 11 samples.

Results

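Perinatal stromal cells labelled Sca1-negative were compared with perinatal stromal cells labelled Sca1-positive, with 2 libraries in each group. The comparison took replicates 2 and 3 of each label from the deposited table made for it, and so used 4 of the 11 samples of the series. All 4 samples were bone marrow mesenchymal stromal cells of wild-type mice, sorted by flow cytometry with PDGFRa on the surface. The sort labels call the cells postnatal and the series design calls them perinatal, with no age in days, strain or sex given. The titles of the samples labelled Sca1-positive also call them Cre-negative, with no Cre line named there, and the titles of the samples labelled Sca1-negative say nothing of Cre. The other 7 samples were a further wild-type sample labelled Sca1-positive, 3 samples labelled Sca1-positive in which Igf1r was deleted, and 3 adult wild-type samples sorted for PDGFRa and CD51. PolyA RNA was sequenced. Whether each sample was a different animal is not said in the labels, and the p-values then cover only the variation among these 4 libraries, technical variation included.

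Sca1 is a small protein anchored to the cell surface by a lipid tail and is encoded by Ly6a. It is used, with the growth factor receptor PDGFRa, to sort stromal cells of mouse bone. Cells that carry both are described as fibroblast-like progenitors of the marrow and of the tissue around bone, while stromal cells without Sca1 include osteoblasts and chondrocytes. Cartilage is made by chondrocytes under the transcription factor SOX9, and bone by osteoblasts under RUNX2 and SP7.

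Ly6a, on the minus strand of chromosome 15, went against the labels. Ly6a had 10159 and 9112 counts in the labelled-negative libraries 2 and 3, and 239 and 145 counts in the labelled-positive libraries 2 and 3. As CPM, which are counts relative to the TMM-scaled total of a library, these were 686 and 655 against 13.5 and 10.05. The groups were thus far apart, and the libraries with the high level were those labelled Sca1-negative. The log2 difference, labelled Sca1-negative minus labelled Sca1-positive as in all that follows, was 5.83 (SE 0.26, edgeR adjusted p = 0.00147). In the authors' deposited table the log2 fold change of Ly6a was -5.84. That table is named as Sca1-negative against Sca1-positive, and read so its fold changes run against its own count columns for all 953 genes with an adjusted p under 0.05 there. Read the other way round, they go with the counts. Surface protein was not measured in these files. Groups are called by their labels throughout, although Ly6a runs against them.

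Ly6a has many relatives in a cluster on chromosome 15, which encode small surface or secreted proteins of the same fold. Of 15 tested genes of this family 5 were higher in the labelled-negative libraries, Ly6a itself included, and 0 were lower. Over all genes tested 1.63% were higher and 2.79% lower. DESeq2 called 5 of the 15 higher and 1 lower. The family was not moved as a whole: its median log2 difference was 0.11, with 5 genes above and 4 below in both labelled-negative libraries. Of all genes tested, 24.4% lay above in both and 25.8% below in both. Ly6c1, which lies on the same strand as Ly6a at chr15:75044018-75048830 (mm10), was at 279 and 297 CPM in the labelled-negative libraries and at 12.7 and 9.91 CPM in the labelled-positive libraries. Its log2 difference was 4.67 (SE 0.23, edgeR adjusted p = 0.00147). Ly6e, at chr15:74955051-74959905 on the opposite strand to Ly6a, was at 183 and 203 against 68.7 and 66.4 CPM. The groups did not overlap for either gene, and the step was smaller for Ly6e, with a log2 difference of 1.52 (SE 0.18, edgeR adjusted p = 0.00824). Slurp1, which encodes a secreted member of the family, was at 16.9 and 11.8 against 1.47 and 1.25 CPM, and Lynx1, which encodes a membrane-anchored regulator of nicotinic receptors, at 40.8 and 42.0 against 12.5 and 13.3 CPM. Other genes of the same stretch did not pass the test. Ly6d, a marker of lymphoid and epithelial cells, was at 0.540 and 1.01 against 7.22 and 3.12 CPM (edgeR adjusted p = 0.0509), and Ly6c2, a near relative of Ly6c1, was under 1 CPM in every library. Reads shared between such close copies could be split between them in the authors' counting, so the level of each Ly6 gene is uncertain to that extent.

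Pdgfra, the gene of the other sort marker, was not called, and neither were Itgav and Igf1r. Pdgfra was at 332 and 331 CPM in the labelled-negative libraries and at 230 and 277 CPM in the labelled-positive libraries, a log2 difference of 0.39 (SE 0.19, edgeR adjusted p = 0.340). Itgav, the gene of CD51, a sort marker named for the adult samples, had a log2 difference of 0.08 (SE 0.17). Igf1r, the receptor deleted elsewhere in the series, was at 26.6 and 25.5 against 30.9 and 30.8 CPM. None of the 3 passed the test.

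**Figure D1:**
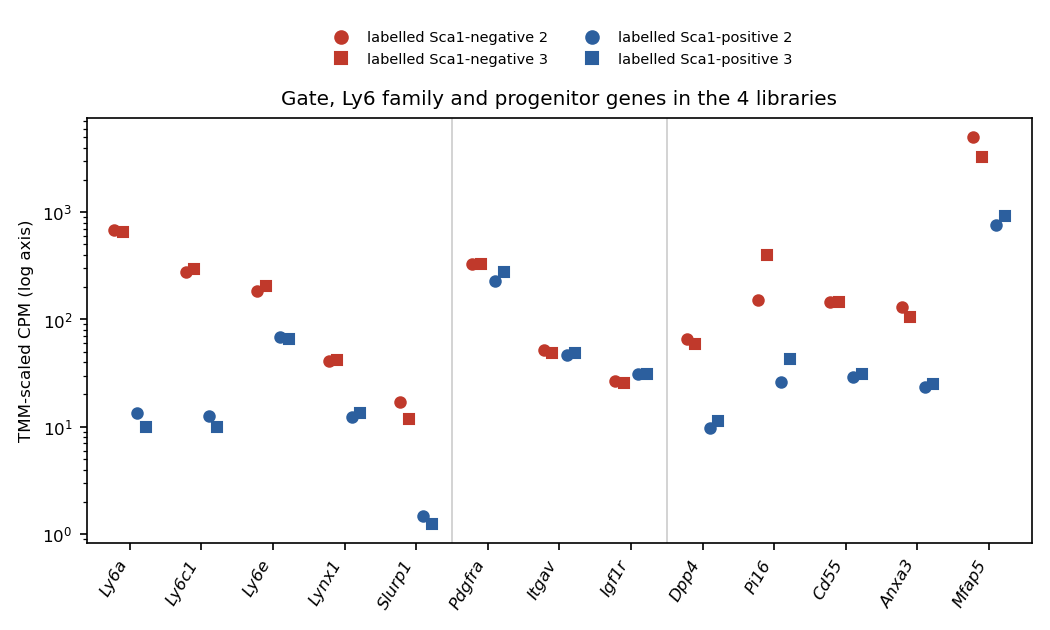
TMM-scaled CPM on a log axis of Ly6 family genes (left), Pdgfra, Itgav and Igf1r (middle) and genes of fibroblast progenitors (right). Each of the 4 libraries has 1 point. Ly6a sits at 686 and 655 CPM in the labelled-negative libraries and at 13.5 and 10.05 CPM in the labelled-positive libraries, while Pdgfra, Itgav and Igf1r lie close together in all 4.

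The remaining perinatal libraries of the series showed the high Ly6a level under the label Sca1-positive. The labelled-positive libraries 2 and 3 stand in all 3 deposited tables, where at least 97.9% of shared genes have the same count, so these tables share samples and give side-by-side values only. In the knockout table Ly6a was at 425 CPM, unscaled, in the wild-type library labelled Sca1-positive 1 and at 768, 682 and 930 CPM in the Igf1r knockouts. Spp1, a bone matrix gene, was at 35.7 CPM in that library 1 and at 156, 59.9 and 147 CPM in the knockouts, against 4627 and 4369 CPM in libraries 2 and 3 of the same table. The labels give library 1 of the age table and library 1 of the knockout table as one sample, but only 1.72% of shared genes have the same count in both. Library 1 of the age table had Spp1 at 213 CPM and Dpp4 at 56.5 CPM. Ly6a is not listed under that name there. For the genes plotted, the other libraries labelled Sca1-positive lay on the side of the labelled-negative libraries and not with labelled-positive 2 and 3. The sample titles call replicates 2 and 3 Sca1-positive, while their column headers in the age table do not mention Sca1. Exchanged labels and a difference in what was sorted cannot be told apart here.

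**Figure D2:**
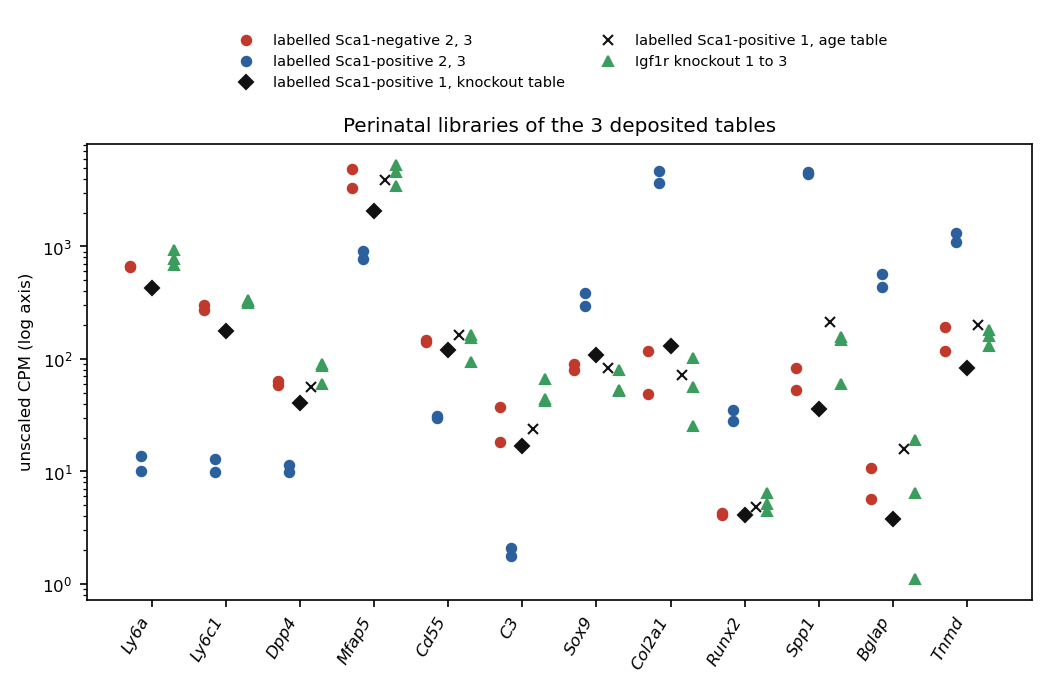
Unscaled CPM on a log axis of 12 genes in the perinatal libraries of the 3 deposited tables, with red circles for labelled Sca1-negative 2 and 3, blue circles for labelled Sca1-positive 2 and 3, a diamond and a cross for the libraries labelled Sca1-positive 1, and triangles for the Igf1r knockouts. Ly6a is at 425 CPM in the labelled-positive library 1 of the knockout table and at 682 to 930 CPM in the Igf1r knockouts, above both libraries drawn as blue circles, and the tables were made separately.

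Total counts were 15249175 and 13835467 in the labelled-negative libraries and 17320233 and 14453567 in the labelled-positive libraries, and a floor of 3 counts stood at 0.173 to 0.217 CPM. Counting error only is covered by that floor. The labelled-negative libraries were less alike than the labelled-positive ones: 646 genes (4.77%) differed by more than 2-fold between labelled-negative 2 and 3, and 84 genes (0.621%) between labelled-positive 2 and 3, after adding 1 CPM.

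Markers of other cell types moved in part with the groups. Of 14 erythroid genes counted, 12 were tested and 9 lay below in both labelled-negative libraries. Of all genes tested, 25.8% lay below in both and 24.4% above in both, and edgeR called 2.79% lower and 1.63% higher. These shares are the background for the counts of this paragraph. The 14 erythroid genes summed to 335 and 962 CPM against 1299 and 1693 CPM in the labelled-positive libraries. Hba-a1, a haemoglobin gene, was at 115 and 324 against 445 and 580 CPM and did not pass the test, while the transferrin receptor gene Tfrc did, at 3.65 and 1.51 against 16.5 and 12.2 CPM (log2 difference -2.47, edgeR adjusted p = 0.0292). The 9 epithelial markers summed to 8.58 and 10.3 against 67.1 and 38.7 CPM, with 5 and 2 of them at 0 in the labelled-negative libraries and none at 0 in the labelled-positive ones. Epithelial genes that were lower were Krt14, Krt15, Krt5 and Epcam, 4 of 6 tested, and Cdh1 was at 0 in both labelled-negative libraries. Without labelled-negative library 2 the calls of Krt14 and Krt5 ended (edgeR adjusted p = 0.0883 and 0.0512), and without labelled-positive library 2 that of Epcam (edgeR adjusted p = 0.177). DESeq2 did not call Krt15 and Krt5 (DESeq2 adjusted p = 0.107 and 0.279). Mural and smooth muscle markers summed to 555 and 675 against 987 and 972 CPM, with Mylk and Vtn lower of 16 tested, and Vtn lost its call without labelled-positive library 3 (edgeR adjusted p = 0.0549). The 14 Schwann and perineurial markers together summed to 893 and 931 against 885 and 885 CPM, although 10 of 13 tested lay below in both labelled-negative libraries, with a median log2 difference of -0.86. Of these edgeR called 1 lower and DESeq2 5, and the edgeR call, of Cldn1, ended without labelled-positive library 3 (edgeR adjusted p = 0.0767). Skeletal muscle markers summed to 662 and 573 against 394 and 424 CPM, and osteoclast markers to 370 and 416 against 554 and 533 CPM. Abundant genes set these sums: of 11 tested muscle markers 0 were higher and 1 lower by edgeR (2 and 2 by DESeq2), with 5 above and 4 below in both libraries, and of 4 tested osteoclast markers Itgb3 was higher and Mmp9 lower. Markers of B cells stayed at 9.36 CPM or below in sum, and those of T and NK cells at 1.73 CPM or below. Macrophage markers were near equal, summing to 34.0 and 50.4 against 40.6 and 47.8 CPM, and those of endothelium to 282 and 312 against 321 and 279 CPM. The part of these cell types in the differences below was not tested.

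Across 13529 genes tested, 220 (1.63%) were higher and 377 (2.79%) lower in the labelled-negative libraries at an edgeR adjusted p under 0.05, together 4.41%. Both labelled-negative libraries lay above both labelled-positive ones for 24.4% of genes and below both for 25.8%. The median difference of all genes was 0.01. At an unadjusted edgeR p under 0.05, 1170 genes were higher and 1393 lower. These shares and counts over all genes are the background for every list in this report. Falls were larger than rises: of the lower genes 213 passed 4-fold and 70 passed 16-fold, against 63 and 10 of the higher genes. With the fold changes of the authors' deposited table signed as its counts are, it calls 404 genes higher and 549 lower, of which 219 and 363 were also called here. The counts rested on single libraries. Without labelled-positive library 2 there were 143 higher and 348 lower genes, and without labelled-negative library 2 or 3, when the spread came from the closer labelled-positive pair alone, 1111 and 2268 genes were higher and 1146 and 2567 lower.

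**Figure D3:**
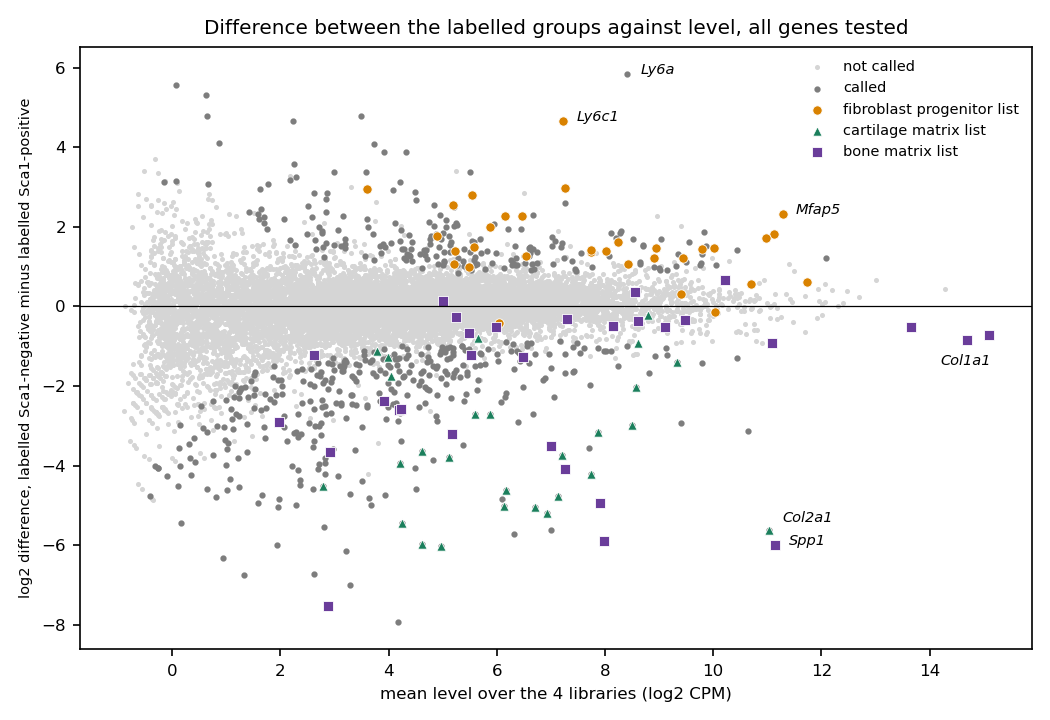
Log2 difference, labelled Sca1-negative minus labelled Sca1-positive, against the mean log2 CPM of the 4 libraries for the genes tested, with called genes in dark grey and members of 3 lists in colour. Ly6a stands alone among abundant genes at 5.83, and Spp1 and Col2a1 lie at -6.00 and -5.62, while genes at 0 in both libraries of a group are not drawn.

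Genes of Pi16- and Dpp4-expressing fibroblast progenitors, cells described in the outer layers of many tissues, were higher in the labelled-negative libraries. Of 32 tested 19 were higher and 0 lower, with a median log2 difference of 1.46, against 0.01 over all genes. In both libraries 28 of the 32 lay above, as did 24.4% of all genes tested. Without labelled-positive library 2 there were 11 higher. DESeq2 called 27 higher and 0 lower. Dpp4, which encodes the surface peptidase CD26, was at 65.8 and 58.6 CPM in the labelled-negative libraries and at 9.75 and 11.4 CPM in the labelled-positive libraries. Its log2 difference was 2.56 (SE 0.20, edgeR adjusted p = 0.00310). Pi16, a peptidase inhibitor gene, was at 152 and 395 against 25.9 and 43.2 CPM, so that the labelled-negative pair was wide apart but still clear of the other pair (log2 difference 2.99, SE 0.50, edgeR adjusted p = 0.0266). Cd55, which encodes a brake on complement, was at 147 and 146 against 29.4 and 30.9 CPM (log2 difference 2.28, SE 0.18, edgeR adjusted p = 0.00326). Anxa3, an annexin gene, was at 130 and 104 against 23.6 and 25.2 CPM.

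The surface and matrix genes of the same list went in that direction too. Thy1, the gene of the surface antigen CD90, was at 51.9 and 39.4 against 15.1 and 11.7 CPM (log2 difference 1.77, SE 0.24, edgeR adjusted p = 0.0124). Scara5, a scavenger receptor gene, was at 75.2 and 112 against 22.4 and 24.4 CPM, and Procr, the gene of the protein C receptor, at 52.7 and 55.2 against 20.5 and 20.4 CPM. All 3 genes kept their groups apart. Mfap5, a microfibril gene, was the most abundant of the called genes of the list by CPM, at 4987 and 3293 against 758 and 912 CPM (log2 difference 2.31, SE 0.27). Wnt2, a Wnt ligand gene, was at 18.8 and 23.7 against 1.58 and 4.02 CPM. Fbn1, which encodes fibrillin, and Has1, a hyaluronan synthase gene, were called with log2 differences of 1.73 and 1.83, but not without labelled-positive library 2, where edgeR adjusted p was 0.0731 and 0.0629. Efemp1, a fibulin gene, was at 72.1 and 90.9 against 8.12 and 15.3 CPM and lost its call without labelled-negative library 2 (edgeR adjusted p = 0.0634).

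Other members did not pass. Cd34, a sialomucin gene used to mark these cells, was at 788 and 1148 against 361 and 470 CPM (log2 difference 1.22, SE 0.26, edgeR adjusted p = 0.0557). Col14a1, a collagen gene often listed for such fibroblasts, overlapped between the groups at 682 and 1303 against 956 and 1231 CPM. Stromal surface antigens as a wider list were split, with 1 of 28 higher, which was Thy1, and 5 lower. Of the lower ones, Nt5e, Cdh11 and S1pr3 lost their calls without labelled-positive library 3 (edgeR adjusted p = 0.0740, 0.203 and 0.231), and Cdh11 also without library 2 (edgeR adjusted p = 0.229). Alcam, the gene of the adhesion molecule CD166, was at 2.23 and 2.16 against 10.3 and 12.0 CPM (log2 difference -2.34, SE 0.26, edgeR adjusted p = 0.00744), and Cd200, an immunoglobulin family gene, at 25.5 and 14.9 against 69.8 and 63.0 CPM (log2 difference -1.72, SE 0.28, edgeR adjusted p = 0.0250). The endoglin gene Eng was not called, at 90.6 and 138 against 114 and 132 CPM. Of 30 tested transcription factor genes of fibroblasts 0 were higher and 2 lower (3 and 2 by DESeq2). Over all genes tested edgeR called 1.63% higher and 2.79% lower. Prrx1, a factor of limb mesenchyme, was at 154 and 154 against 138 and 123 CPM.

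Gap43, Tek and Itgb3 were higher as well. Gap43, known as a growth cone protein of neurons, was at 304 and 225 against 40.1 and 47.1 CPM (log2 difference 2.60, SE 0.23, edgeR adjusted p = 0.00423). Tek, the gene of the angiopoietin receptor TIE2, was at 56.7 and 69.0 against 10.2 and 12.1 CPM (log2 difference 2.50, SE 0.21, edgeR adjusted p = 0.00377). Tek is best known in endothelium, where 1 of 20 tested marker genes was higher and 0 lower, and the defining genes Pecam1 and Cdh5 were not called, at 16.9 and 12.4 against 26.2 and 11.9 CPM and at 7.43 and 3.52 against 9.87 and 9.36 CPM. Itgb3, an integrin subunit gene that also marks osteoclasts, was at 56.4 and 61.6 against 13.5 and 15.8 CPM (log2 difference 2.01, SE 0.19, edgeR adjusted p = 0.00498).

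**Figure D4:**
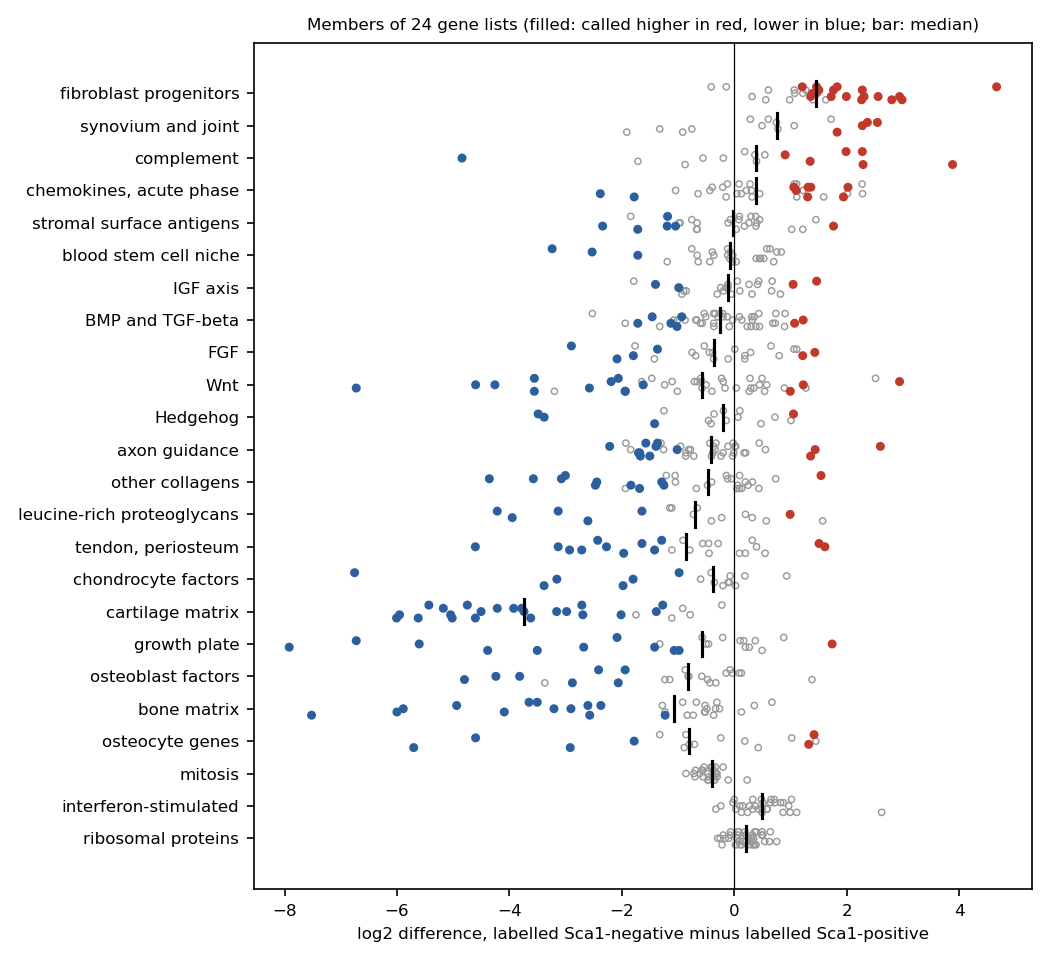
Log2 difference, labelled Sca1-negative minus labelled Sca1-positive, of every tested member of 24 gene lists, with called members filled, others open and the median of a list as a bar. The median of the fibroblast progenitor list is 1.46 and that of the cartilage matrix list is -3.74, while edgeR calls 0 of the mitosis, interferon and ribosomal protein genes drawn, and Mepe, at 0 in both labelled-negative libraries, is not drawn.

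Cartilage genes were lower in the labelled-negative libraries. Of 27 tested collagen and matrix genes of cartilage 25 lay below in both libraries, as did 25.8% of all genes tested. Of the 27 cartilage genes 22 were lower and 0 higher (25 and 0 by DESeq2), with a median log2 difference of -3.74. As a share of all counts these genes made up 0.160% and 0.153% in the labelled-negative libraries and 0.921% and 1.10% in the labelled-positive ones. In bulk RNA fewer chondrocytes and less cartilage RNA per cell cannot be told apart, here or for any list below. Col2a1, the gene of the main collagen of hyaline cartilage, was at 50.4 and 116 against 3555 and 4655 CPM (log2 difference -5.62, SE 0.48, edgeR adjusted p = 0.00377). The genes of its partner collagens fell nearly as far: Col9a1 was at 10.7 and 9.49 against 252 and 291 CPM, and Col11a2 at 4.998 and 8.05 against 206 and 265 CPM. Neither pair came near the other, with log2 differences of -4.75 (SE 0.22) and -5.18 (SE 0.32).

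Proteoglycans and small cartilage proteins ranged widely. Acan, the gene of the large proteoglycan aggrecan, was at 146 and 158 against 611 and 614 CPM (log2 difference -2.01, SE 0.18, edgeR adjusted p = 0.00458), a smaller step from a level that remained well above the floor. Matn3, a matrilin gene, was at 0.945 and 0.934 against 75.4 and 46.4 CPM (log2 difference -6.01, SE 0.36, edgeR adjusted p = 0.00169), and Ucma, a gene of growth plate cartilage, at 0.540 and 1.01 against 50.9 and 45.3 CPM. Cnmd, which encodes the angiogenesis inhibitor chondromodulin, was at 44.2 and 50.01 against 430 and 412 CPM (log2 difference -3.16, SE 0.20). Cilp2 and Chad, genes of cartilage matrix proteins, had log2 differences of -4.61 and -4.22. Comp, the gene of an oligomeric protein shared by cartilage and tendon, was at 356 and 360 against 887 and 984 CPM, and lost its call without labelled-positive library 3 (edgeR adjusted p = 0.0664). Matn1 was at 2.36 and 2.16 against 53.4 and 15.2 CPM and lost its call without either labelled-negative library (edgeR adjusted p = 0.518 without 2 and 0.409 without 3). The genes of the list that did not pass were Prg4, Epyc, Cilp, Scrg1 and Col27a1. Prg4, which encodes the lubricant of joint surfaces, was at 270 and 270 against 230 and 790 CPM, so that 1 labelled-positive library alone was high.

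Of 16 tested transcription factor genes of chondrocytes 6 were lower and 0 higher. Sox9 was at 82.9 and 88.8 against 289 and 386 CPM (log2 difference -1.98, SE 0.22, edgeR adjusted p = 0.00726), and its partner Sox6 at 4.25 and 2.52 against 12.3 and 11.3 CPM (log2 difference -1.80, SE 0.31, edgeR adjusted p = 0.0304). The other partner, Sox5, was level at 26.3 and 24.6 against 25.1 and 29.9 CPM and was not called (log2 difference -0.11, SE 0.19). The log2 difference of Sox9 was smaller than that of Col2a1, a gene it is known to drive, and the gap between them was not tested. Foxa3, a forkhead factor gene, had 1 and 0 counts against 76 and 72. Runx3 was at 1.35 and 0.719 against 12.4 and 9.42 CPM, and Foxc2, a factor of skeletal mesenchyme, at 0.743 and 1.15 against 7.33 and 9.63 CPM. These 3 were scarce in the labelled-negative libraries and had log2 differences of -6.75, -3.38 and -3.16.

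In the growth plate, hedgehog and parathyroid-hormone-related signals control when chondrocytes enlarge, and the enlarged cells then prepare the matrix for bone. Of 23 tested genes of this step 10 were lower and 1 higher. Mmp13, the collagenase gene of late hypertrophic cartilage and of osteoblasts, was at 3.17 and 7.19 against 237 and 266 CPM (log2 difference -5.60, SE 0.41, edgeR adjusted p = 0.00267). Col10a1, the collagen gene of hypertrophic cartilage, had 0 and 4 counts against 854 and 335, and lost its call without either labelled-negative library (edgeR adjusted p = 0.246 without 2 and 0.126 without 3). Panx3, a channel gene of the same cells, was at 0.743 and 1.29 against 25.5 and 17.1 CPM, and Alpl, the gene of the phosphatase that releases phosphate for mineral, at 17.6 and 24.1 against 249 and 224 CPM. The 2 labelled-positive libraries stood clear of the labelled-negative ones for each. Tnfsf11, which encodes the osteoclast-inducing ligand RANKL, was at 1.89 and 2.16 against 13.1 and 12.8 CPM (log2 difference -2.68, SE 0.26, edgeR adjusted p = 0.00517). Ihh, the hedgehog ligand gene of this zone, was too low to test, at 0 and 4 counts against 24 and 3. The gene that was higher, Adamts5, encodes an enzyme that cuts aggrecan and was at 201 and 200 against 54.2 and 65.4 CPM (log2 difference 1.74, SE 0.19, edgeR adjusted p = 0.00726).

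**Figure D5:**
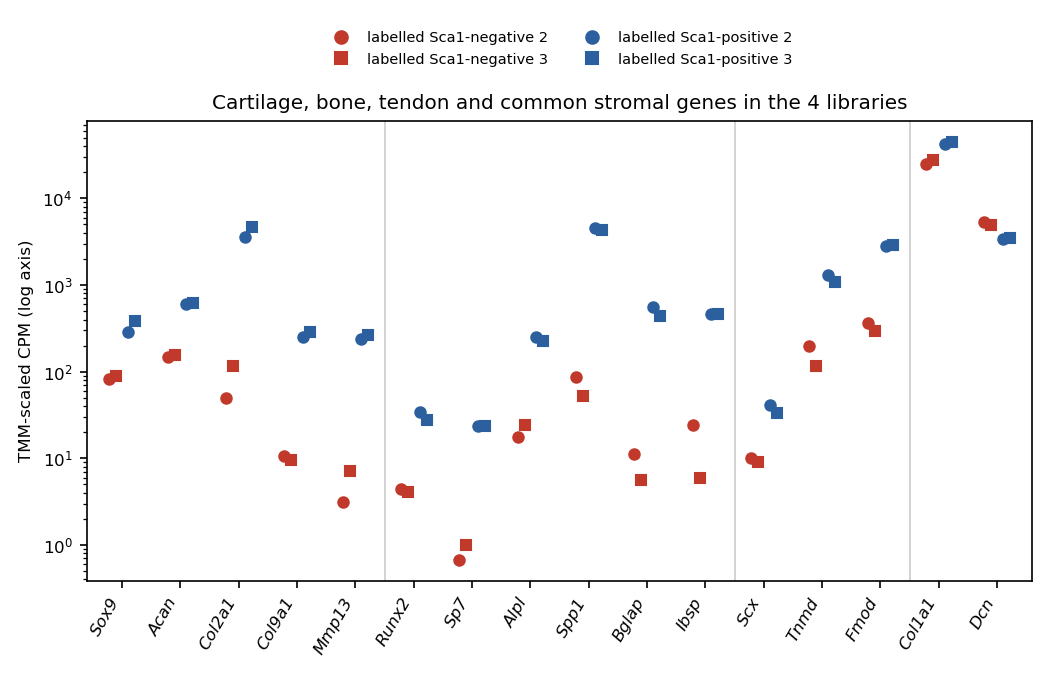
TMM-scaled CPM on a log axis of cartilage genes (left), bone genes, tendon genes and the common stromal genes Col1a1 and Dcn (right), with 1 point for each of the 4 libraries. Spp1 sits at 86.3 and 52.5 CPM in the labelled-negative libraries and at 4517 and 4374 CPM in the labelled-positive libraries, while Col1a1 and Dcn were not called.

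Osteoblast genes were lower as well. Of 23 tested transcription factor genes of osteoblasts 7 were lower and 0 higher. In both labelled-negative libraries 17 of the 23 lay below, as did 25.8% of all genes tested. Runx2 was at 4.39 and 4.10 against 34.4 and 28.1 CPM (log2 difference -2.88, SE 0.23, edgeR adjusted p = 0.00329). Sp7, which acts after Runx2, was at 0.675 and 1.01 against 23.5 and 23.6 CPM (log2 difference -4.80, SE 0.30, edgeR adjusted p = 0.00169). Dlx5, Tcf7 and Lef1 were also called, with log2 differences of -2.41, -1.94 and -2.06. For each of these factors the 2 labelled-positive libraries were high.

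Bone matrix genes were lower in the labelled-negative libraries. Of 30 tested 13 were lower and 0 higher, with a median log2 difference of -1.07, and by DESeq2 17 were lower and 0 higher. Together these genes took 5.49% and 6.70% of counts in the labelled-negative libraries and 10.5% and 10.8% in the labelled-positive ones, with erythroid and epithelial markers higher in the latter as given above, and their part was not tested. Without labelled-negative library 2 there were 20 and without library 3 there were 25. Spp1, which encodes osteopontin, was at 86.3 and 52.5 CPM in the labelled-negative libraries and at 4517 and 4374 CPM in the labelled-positive libraries (log2 difference -6.00, SE 0.33, edgeR adjusted p = 0.00169). Bglap, which encodes the mineral-binding protein osteocalcin, was at 11.1 and 5.61 against 559 and 436 CPM (log2 difference -5.89, SE 0.40, edgeR adjusted p = 0.00186). Ifitm5, an osteoblast membrane gene, was at 7.43 and 6.54 against 66.4 and 62.8 CPM, and Vdr, the vitamin D receptor gene, at 0.810 and 1.37 against 12.9 and 14.6 CPM. Per length, by the deposited TPM values, Spp1 stood at 5146 and 4968 TPM in the labelled-positive libraries, Bglap at 3618 and 2815, Col2a1 at 1279 and 1665, and Ly6a at 27.5 and 20.6. In the labelled-negative libraries Ly6a was the highest of these 4, at 1148 and 1258 TPM. The genes of the common collagen of bone and skin did not pass, with Col1a1 at 24622 and 27979 against 42284 and 44835 CPM (log2 difference -0.73, SE 0.20, edgeR adjusted p = 0.116).

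Spp1 lies in a cluster of genes for acidic bone matrix proteins on the plus strand of chromosome 5, and the 4 of its genes that were tested were lower. In order along the chromosome (mm10), Dmp1 at chr5:104202613-104214102 was at 4.86 and 1.08 against 147 and 166 CPM (log2 difference -5.70, SE 0.60, edgeR adjusted p = 0.00695). Ibsp at chr5:104299171-104311469, which encodes bone sialoprotein, was at 24.2 and 5.96 against 462 and 466 CPM (log2 difference -4.94, SE 0.64, edgeR adjusted p = 0.0113). Mepe at chr5:104325329-104338611, an osteocyte gene, had 0 counts in both labelled-negative libraries and 29 and 18 in the labelled-positive ones, at least 6.97-fold lower against a floor of 3 counts per library (edgeR adjusted p = 0.0302). Spp1 at chr5:104435118-104441050 closes the row. The genes on either side were not called: Sparcl1 was at 752 and 735 against 514 and 696 CPM, and Pkd2 at 95.5 and 77.0 against 73.7 and 86.0 CPM. On chromosome 3 the osteocalcin copies Bglap2 and Bglap3 were lower with Bglap, at 20.4 and 13.4 against 340 and 236 CPM and at 0.743 and 1.01 against 7.33 and 5.82 CPM. The 3 copies are nearly identical, so the split of reads among them is uncertain.

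The bases before the start of Spp1 and of Mmp13 are shown because both were abundant genes with large differences and both are known targets of RUNX2. Both windows hold the letters AACCACA, a core bound by RUNX factors, set in capitals, at 129 and 119 bases before the start. They are read 5′ to 3′ on the plus strand from RefSeq promoters of GRCm38.p6, at chr5:104434861-104435110 and chr9:7272264-7272513.
Spp1: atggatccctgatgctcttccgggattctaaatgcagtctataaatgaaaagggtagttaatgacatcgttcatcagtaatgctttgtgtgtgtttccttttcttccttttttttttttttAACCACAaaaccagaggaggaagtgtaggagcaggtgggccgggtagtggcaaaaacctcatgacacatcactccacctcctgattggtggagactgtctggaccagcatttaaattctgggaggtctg
Mmp13: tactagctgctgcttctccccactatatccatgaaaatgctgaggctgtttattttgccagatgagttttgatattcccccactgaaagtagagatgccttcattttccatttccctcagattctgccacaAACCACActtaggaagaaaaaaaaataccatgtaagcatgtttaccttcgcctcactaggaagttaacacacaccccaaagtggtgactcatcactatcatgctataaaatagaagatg
On either strand these letters stood in any window of 6.76% of 281 genes lower in the labelled-negative libraries. The share was 5.77% of 156 higher genes and 3.78% of 10510 genes tested that have windows. By window, a different unit, it was 4.40% of all 32851 RefSeq windows. The letters were among 17 motifs searched, chosen after values were seen. The E-box letters CAGGTG stood in 26.0% of the lower genes, 14.7% of the higher genes and 18.1% of the genes tested. None of these shares was tested. A match is a description of letters and not a binding site.

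Osteocyte genes were split, with 5 of 17 tested lower and 2 higher. Beside Dmp1 and Mepe, the lower ones were Kcnk2, a potassium channel gene at 1.01 and 1.58 against 11.2 and 8.39 CPM, Dkk1, a secreted Wnt inhibitor gene at 1 and 3 counts against 50 and 63, and Cx3cl1, a chemokine gene that lost its call without labelled-positive library 3 (edgeR adjusted p = 0.314). The higher ones were Ackr3, a scavenger receptor gene for CXCL12 that is not particular to bone, and Tnfrsf11b, which encodes osteoprotegerin, the decoy receptor of RANKL. Tnfrsf11b was at 29.4 and 28.4 against 12.6 and 10.5 CPM (log2 difference 1.33, SE 0.20, edgeR adjusted p = 0.0199), opposite in direction to its ligand gene Tnfsf11. Leaving out labelled-positive library 3 ended its call (edgeR adjusted p = 0.149), and leaving out library 2 ended that of Ackr3 (edgeR adjusted p = 0.129).

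Tendon genes were lower too. Of 24 tested genes of tendon and periosteum 10 were lower and 2 higher, with a median of -0.85. Scx, the transcription factor of tendon progenitors, was at 10.1 and 9.05 against 41.8 and 33.2 CPM (log2 difference -1.97, SE 0.21, edgeR adjusted p = 0.00726), and Mkx, a homeobox factor of tendon, at 5.67 and 5.25 against 30.8 and 28.1 CPM. Tnmd, the gene of the tendon membrane protein tenomodulin, was at 197 and 117 against 1295 and 1096 CPM (log2 difference -2.93, SE 0.30, edgeR adjusted p = 0.00648). Its relative Cnmd, described above, had a like step. Fmod, which encodes the proteoglycan fibromodulin, was at 363 and 295 against 2858 and 2917 CPM (log2 difference -3.13, SE 0.22, edgeR adjusted p = 0.00201), and Chodl at 29.2 and 24.4 against 160 and 192 CPM. Postn, the periostin gene, was the most abundant of these and lay above in both labelled-negative libraries, at 7573 and 5281 against 4920 and 4845 CPM. It did not pass the test (log2 difference 0.40, SE 0.24, edgeR adjusted p = 0.439). Thbs4 was not called either. The 2 genes that were higher were Tppp3, a marker of tendon sheath, at 1097 and 1170 against 336 and 406 CPM, and Ccn3 at 625 and 601 against 209 and 222 CPM (log2 differences 1.61 and 1.51), and both calls ended without labelled-positive library 2 (edgeR adjusted p = 0.0721 and 0.0669).

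Some genes of the lining of joints were higher. Of 15 tested genes of synovium and joint 4 were higher and 0 lower, with a median of 0.75. They were Cd55 and Has1, given above, and Htra4 and Clic5. Htra4, a serine protease gene, was at 33.6 and 63.7 against 5.64 and 11.1 CPM (log2 difference 2.55, SE 0.43, edgeR adjusted p = 0.0273), and Clic5 was called from at most 80 counts in a library and not without labelled-positive library 3 (edgeR adjusted p = 0.0535). Gdf5, the signal that marks forming joints, was at 3.31 and 6.75 against 10.9 and 14.3 CPM and did not pass (log2 difference -1.33, SE 0.37, edgeR adjusted p = 0.116).

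Matrix genes shared by many stromal cells were called in both directions. Of 16 tested small leucine-rich proteoglycan genes 5 were lower (Chad, Podnl1, Fmod, Omd and Kera) and 1 higher, Prelp, whose call ended without either labelled-positive library (edgeR adjusted p = 0.592 without 2 and 0.255 without 3). The abundant members Dcn and Lum, which encode decorin and lumican, were at 5308 and 4928 against 3444 and 3448 CPM and at 1685 and 1817 against 1537 and 1511 CPM, and neither passed the test. Kera, the keratocan gene, was at 87.0 and 76.7 against 279 and 231 CPM (log2 difference -1.64, SE 0.20, edgeR adjusted p = 0.00871). Among 31 tested collagen genes outside cartilage 10 were lower and 1, Col5a3, higher, the last not without labelled-positive library 2 (edgeR adjusted p = 0.132). Col3a1, the collagen gene of loose connective tissue, was not called, at 21597 and 24549 against 15663 and 18385 CPM. Col13a1, a transmembrane collagen gene, was at 1.35 and 1.01 against 13.1 and 15.2 CPM (log2 difference -3.57, SE 0.30, edgeR adjusted p = 0.00377), and Col24a1, known in bone, at 4.66 and 5.68 against 25.8 and 30.5 CPM (log2 difference -2.44, SE 0.23, edgeR adjusted p = 0.00507). Col8a1 and Col8a2 were lower as well, with log2 differences of -1.68 and -1.84. Of 24 elastic fibre genes 3 were higher, Mfap5, Fbn1 and Efemp1, and 1 was lower, Ltbp2, whose call ended without labelled-positive library 3 (edgeR adjusted p = 0.272). Eln, the elastin gene, overlapped at 57.9 and 162 against 106 and 147 CPM.

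Among 34 tested genes of matrix proteases and their inhibitors 4 were higher and 4 lower. Over all genes tested 1.63% were higher and 2.79% lower. Adamts15 and Mmp19, higher, lost their calls without labelled-positive library 2 (edgeR adjusted p = 0.197 and 0.198), and Adamts17 and Adamts9, lower, without library 3 (edgeR adjusted p = 0.0525 and 0.0891). Mmp9, a gelatinase gene of osteoclasts and hypertrophic cartilage, was at 1.28 and 3.81 against 39.2 and 44.8 CPM (log2 difference -4.05, SE 0.45, edgeR adjusted p = 0.00726). Acp5, the phosphatase gene that marks osteoclasts, was at 13.2 and 18.1 against 20.4 and 21.6 CPM and did not pass. Adamts19, a relative of Adamts5, was at 39.5 and 45.3 against 11.3 and 13.6 CPM (log2 difference 1.77, SE 0.20, edgeR adjusted p = 0.00760). Mmp2 and Timp1, both abundant in stroma, were not called.

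Wnt proteins drive osteoblast formation, and cells answer them with secreted inhibitors and feedback genes. Of 43 tested genes of the pathway 11 were lower and 3 higher, with a median of -0.58. Wif1, a secreted inhibitor gene, was at 35.9 and 29.5 against 353 and 415 CPM (log2 difference -3.56, SE 0.22, edgeR adjusted p = 0.00169). Sfrp5, another inhibitor gene, had 2 and 1 counts against 189 and 190, and the receptor gene Fzd9, known from bone formation, was at 0.743 and 0.862 against 14.8 and 16.1 CPM (log2 difference -4.26, SE 0.29, edgeR adjusted p = 0.00186). The 2 groups stood far apart for each of these. Notum and Nkd2, which encode feedback inhibitors, had log2 differences of -2.58 and -2.19. Axin2, the common feedback gene of the pathway, was at 4.05 and 5.46 against 6.82 and 5.68 CPM and was not called (log2 difference -0.40, SE 0.28). The higher genes were Wnt2, given above, and the inhibitor genes Dkk2 and Sfrp4, which lost their calls without either labelled-positive library (edgeR adjusted p from 0.105 to 0.440).

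The hedgehog list held 3 lower genes and 1 higher gene of 15 tested, where 2.79% of all genes tested were lower and 1.63% higher. Scube2 and Scube1, whose products help release hedgehog ligands, were at 6.69 and 6.90 against 77.9 and 74.7 CPM and at 3.38 and 3.09 against 34.1 and 33.5 CPM. Their log2 differences were -3.49 (SE 0.19) and -3.38 (SE 0.22), each with an edgeR adjusted p of 0.00169. The target gene Gli1 overlapped between groups, at 11.1 and 23.6 against 22.7 and 24.9 CPM. Ptch1, the receptor and target gene, was at 3.38 and 3.52 against 9.41 and 9.01 CPM, and Cdon, a co-receptor gene, at 105 and 113 against 50.1 and 55.1 CPM. Both calls ended without either labelled-positive library, with edgeR adjusted p from 0.106 to 0.151 for Ptch1 and from 0.182 to 0.358 for Cdon.

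FGF receptors restrain cartilage growth and serve bone formation. Of 23 tested genes of the pathway 4 were lower and 2 higher, where 2.79% of all genes tested were lower and 1.63% higher. Fgfr2 was at 19.2 and 20.3 against 153 and 142 CPM (log2 difference -2.90, SE 0.19, edgeR adjusted p = 0.00169), and Fgfr3, the receptor of growth plate chondrocytes, at 7.23 and 5.25 against 26.6 and 26.5 CPM (log2 difference -2.09, SE 0.24, edgeR adjusted p = 0.00772). Dusp6, a feedback phosphatase gene of the pathway, was lower at 32.4 and 40.1 against 91.9 and 94.9 CPM (log2 difference -1.37, SE 0.19, edgeR adjusted p = 0.0148), while the feedback gene Spry1 was not called. The 2 higher genes, Fgf18 and Fgfbp1, lost their calls without either labelled-positive library, at edgeR adjusted p from 0.127 to 0.182.

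BMP and TGF-beta genes had 5 lower and 2 higher of 45 tested, where 2.79% of all genes tested were lower and 1.63% higher. The list counts rested on single libraries. Without labelled-positive library 3 there were 1 lower and 0 higher. Bambi and Bmper lost their calls without either labelled-positive library (edgeR adjusted p from 0.0924 to 0.341), Bmp5 without library 2 (edgeR adjusted p = 0.287) and Bmp7 without library 3 (edgeR adjusted p = 0.170). Fst, the gene of the activin antagonist follistatin, was at 166 and 190 against 87.1 and 82.2 CPM, and Fstl1, an abundant secreted relative, at 6687 and 5433 against 2540 and 2636 CPM. The log2 differences were 1.07 (SE 0.18) and 1.23 (SE 0.21), and both calls ended without either labelled-positive library (edgeR adjusted p from 0.206 to 0.303). Grem1, a BMP antagonist gene that has been used to mark skeletal stem cells, was lower at 2.84 and 2.95 against 8.85 and 10.2 CPM, and lost its call without labelled-positive library 3 (edgeR adjusted p = 0.0609). Bmp4 and the target gene Id1 did not pass, at 141 and 139 against 93.5 and 112 CPM and at 45.7 and 32.0 against 86.7 and 77.3 CPM (edgeR adjusted p = 0.259 and 0.0548).

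The axis of Igf1r, the receptor the series is about, had 2 higher and 2 lower of 25 tested genes. Over all genes tested 1.63% were higher and 2.79% lower. The ligand genes Igf1 and Igf2 were at 992 and 634 against 475 and 445 CPM and at 2539 and 2251 against 1489 and 1530 CPM, and neither passed the test (edgeR adjusted p = 0.147 and 0.121). Igfbp6, which encodes a binding protein that prefers IGF2, was at 1522 and 1497 against 501 and 591 CPM (log2 difference 1.47, SE 0.20, edgeR adjusted p = 0.0126), and Igfbp5, an abundant binding protein gene of bone, at 1311 and 1559 against 704 and 684 CPM. Stc1, a stanniocalcin gene, and Pappa2, the gene of a protease that acts on binding proteins, were lower. All 4 calls ended when a labelled-positive library was left out. Without library 2 the edgeR adjusted p was 0.138 for Igfbp6, 0.375 for Igfbp5 and 0.268 for Pappa2, and without library 3 it was 0.0955 for Stc1. Of the 7 PDGF genes edgeR called 0, with 4 lower at an unadjusted p under 0.05 and 3 lower by DESeq2, and of 20 Notch genes 1 was lower, Heyl, which lost its call without labelled-positive library 3 (edgeR adjusted p = 0.128). In these lists 4 and 9 genes lay below in both labelled-negative libraries, as did 25.8% of all genes tested. At an unadjusted edgeR p under 0.05, 1393 of all 13529 genes tested were lower.

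Axon guidance genes, which also guide vessels and skeletal cells, had 9 lower and 3 higher of 40 tested. Epha3 and Epha4, ephrin receptor genes, moved as a pair, at 18.0 and 17.4 against 61.2 and 51.3 CPM and at 15.9 and 15.8 against 56.3 and 46.8 CPM (log2 differences -1.67 and -1.70, edgeR adjusted p = 0.00744 for each). Unc5b, a netrin receptor gene, was at 8.58 and 5.68 against 32.2 and 34.2 CPM (log2 difference -2.22, SE 0.26, edgeR adjusted p = 0.00772), and Slit2, a repellent gene, at 7.02 and 5.25 against 18.9 and 20.5 CPM. The ligand genes Ntn1 and Sema3c were higher, at 131 and 166 against 44.3 and 65.4 CPM and at 293 and 324 against 108 and 132 CPM. Leaving out labelled-positive library 2 ended both of these calls (edgeR adjusted p = 0.168 and 0.167).

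Of 15 tested complement genes 6 were higher and 1 was lower. C3, the central complement component, was at 38.4 and 18.1 against 1.75 and 2.08 CPM (log2 difference 3.89, SE 0.43, edgeR adjusted p = 0.00744). C4b was at 169 and 168 against 27.6 and 41.2 CPM (log2 difference 2.29, SE 0.25, edgeR adjusted p = 0.00726). The surface brake gene Cd55, given above, was higher too. Cfb, the factor B gene, and Serping1, an inhibitor gene, were higher but not without labelled-positive library 2 (edgeR adjusted p = 0.128 and 0.620). Serping1 lost its call also without library 3 (edgeR adjusted p = 0.437) and narrowly with upper quartile factors or another filter (edgeR adjusted p from 0.0504 to 0.0542). C1s1, a gene of the initiating complex, was not called, at 179 and 177 against 133 and 138 CPM.

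Of 32 tested chemokine and acute-phase genes 7 were higher and 2 lower. Lbp, which encodes a carrier of bacterial lipopolysaccharide, was at 102 and 131 against 26.2 and 34.5 CPM (log2 difference 1.94, SE 0.23, edgeR adjusted p = 0.00851). Ccl19, a chemokine gene of lymphoid stroma, was at 56.7 and 34.3 against 9.87 and 12.5 CPM (log2 difference 2.02, SE 0.29, edgeR adjusted p = 0.0171). The haptoglobin gene Hp was lower, at 15.1 and 11.6 against 63.6 and 76.2 CPM (log2 difference -2.38, SE 0.22, edgeR adjusted p = 0.00471). Cxcl1, a neutrophil chemokine gene, was at 1308 and 1212 against 502 and 516 CPM, and Il6, a cytokine gene, at 146 and 145 against 62.3 and 73.1 CPM. The tumour necrosis factor-induced gene Tnfaip6 and the receptor gene Il1r1 were also higher, and lost their calls without either labelled-positive library (edgeR adjusted p from 0.0622 to 0.287). The calls of Cxcl1 and Il6, with log2 differences of 1.31 (SE 0.19) and 1.10 (SE 0.19), ended without either labelled-positive library (edgeR adjusted p from 0.130 to 0.356), and that of Cxcl2 without library 2 (edgeR adjusted p = 0.0619). Ccl2, the monocyte chemokine gene, was at 1669 and 497 against 296 and 240 CPM, so that 1 labelled-negative library was far above the other, and did not pass (edgeR adjusted p = 0.0991). Of the 12 neutrophil markers edgeR and DESeq2 called 0, with 2 higher at an unadjusted edgeR p under 0.05. Over all 13529 genes tested 1170 were higher at that p. The neutrophil markers summed to 69.8 and 127 against 47.4 and 74.0 CPM.

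The 120 bases before the start of Il6 are shown because it, Cxcl1 and Cxcl2 all hold an NF-kappaB motif with any base in its middle, at 44, 71 and 97 bases before their starts. The window is chr5:30012994-30013113 on the plus strand (RefSeq, GRCm38.p6), with the match in capitals.
Il6: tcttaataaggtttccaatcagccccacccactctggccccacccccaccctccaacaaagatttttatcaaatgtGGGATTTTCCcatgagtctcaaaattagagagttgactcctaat
These 3 are the only higher genes, of 156 with a window of 250 bases, that hold the motif on either strand, so nothing is read from their share. Any window held it for 0.466% of the 10510 genes tested that have windows. By window, a different unit, it stood in 0.356% of all RefSeq windows.

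The factors with which marrow stroma maintains blood stem cells gave 3 lower and 0 higher genes of 26 tested. Over all genes tested 2.79% were lower and 1.63% higher. Cxcl12, the main retention chemokine gene, was at 165 and 292 against 461 and 583 CPM and did not pass (log2 difference -1.19, SE 0.31, edgeR adjusted p = 0.0917). Kitl, the stem cell factor gene, was at 20.8 and 17.7 against 15.4 and 12.3 CPM, and Lepr, the leptin receptor gene that marks adult marrow stroma, at 36.1 and 26.2 against 49.9 and 48.5 CPM. Neither was called. The lower genes were Grem1, Esm1, a secreted proteoglycan gene, at 1.82 and 0.647 against 12.3 and 11.3 CPM (log2 difference -3.24, SE 0.44, edgeR adjusted p = 0.0131), and Adipoq, the adiponectin gene, at 2.70 and 1.22 against 9.08 and 13.8 CPM (log2 difference -2.53, SE 0.43, edgeR adjusted p = 0.0278). The adipocyte factor genes were not called: Pparg was at 6.82 and 5.75 against 4.17 and 3.95 CPM and Cebpa at 4.86 and 5.68 against 6.31 and 7.69 CPM. Of 25 tested adipocyte and lipid genes 0 were higher and 2 lower (1 and 2 by DESeq2), and Angptl4 lost its call without either labelled-positive library (edgeR adjusted p from 0.0725 to 0.268).

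The growth and housekeeping lists are set beside a share of 4.41% called over all genes tested. Of all genes tested, 24.4% lay above in both labelled-negative libraries and 25.8% below in both. Of 28 mitosis genes edgeR and DESeq2 called 0, while 6 were lower at an unadjusted p under 0.05 and 26 lay below in both labelled-negative libraries, with a median of -0.40. Mki67, a proliferation marker gene, was at 56.9 and 63.0 against 75.9 and 90.3 CPM (log2 difference -0.47, SE 0.19, edgeR adjusted p = 0.243). Of 34 replication genes edgeR called 0, with 4 lower at an unadjusted p under 0.05 and 1 by DESeq2. Interferon-stimulated genes also had 0 of 32 called by edgeR, with 11 higher at an unadjusted p under 0.05, 1 higher by DESeq2, 23 above in both libraries and a median of 0.50. Ifitm3, an abundant member, was at 1514 and 1337 against 870.0 and 856 CPM (edgeR adjusted p = 0.0952). The lists for glycolysis, the respiratory chain, cytosolic ribosomal proteins and the secretory pathway each had 0 called by edgeR, of 30, 32, 43 and 36. At an unadjusted p under 0.05 these lists held 9, 1, 0 and 5 genes, and DESeq2 called 4, 0, 0 and 2. Of all 13529 genes tested by edgeR, 1170 were higher and 1393 lower at that unadjusted p. DESeq2 called 424 higher and 588 lower of 14267. Of 27 cholesterol and fatty acid genes 1 was lower, Cyp51, though 20 lay below in both, and its call ended without either labelled-positive library (edgeR adjusted p = 0.408 without 2 and 0.269 without 3). Cdkn2b, a cell cycle inhibitor gene, was lower at 1.08 and 1.15 against 5.24 and 5.06 CPM (log2 difference -2.20, SE 0.33, edgeR adjusted p = 0.0185). Among genes induced when cells are dissociated, some were lowest in labelled-negative library 2: Jun was at 675 and 1704 against 2023 and 1813 CPM and Fos at 2514 and 4489 against 4530 and 3996 CPM. Neither was called, and of 35 such genes 1 was higher, Atf3, and 1 lower, Ccn2. Of 42 genes of limb position 1 was higher, Hoxd8, at 17.8 and 15.1 against 7.61 and 6.10 CPM. The calls of Atf3, Ccn2 and Hoxd8 ended without either labelled-positive library, at edgeR adjusted p from 0.0673 to 0.384. Among imprinted growth genes Nnat, a membrane protein gene of neurons, was lower at 3.65 and 6.32 against 31.8 and 31.5 CPM (log2 difference -2.67, SE 0.30, edgeR adjusted p = 0.00744), while Dlk1 and Cdkn1c were not called.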

How the data were processed

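The authors deposited 3 tables that give each gene a count and a TPM value per sample, with a log2 fold change and its adjusted p-value, per the file headers. The columns headed TPM in the knockout table of the authors hold log2 values and were not used. Reads were trimmed with Trimmomatic 0.32 and mm10 and DESeq2 are named, per the submitters' processing notes. For the aligner, counter, annotation and strand, the answer is not given in the sources used here. Deposited counts were tested with edgeR 4.0.16 (R 4.3.3): filterByExpr, TMM factors, glmQLFit and glmQLFTest on the group alone, with Benjamini-Hochberg adjustment over 13529 genes, called at an adjusted p under 0.05. The SE is the log2 difference divided by the square root of F. All 14267 gene IDs matched GENCODE M21, which gave coordinates. Levels in the other tables are CPM without TMM factors.

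Total counts ran from 13835467 to 17320233 per library. The fit was run on data simulated with known changes, with the same spread set for all genes and both groups. The labelled-negative libraries were less alike than the labelled-positive ones, so the simulation does not give the error rate for these data. Alternatives used DESeq2 1.42.0, limma 3.58.1, other factors and filters, a replicate block, and each library left out. The members, the 41 gene lists and the 11 marker lists were chosen with earlier results of these data known. Genes named were Ly6a, Pdgfra, Itgav and Igf1r, and core members of each list. The 10 called genes per direction with the largest difference were named too (mean log2 CPM of at least 5, no overlap, no predicted genes or pseudogenes). So were up to 4 further called members of a list by adjusted p, or the 2 most abundant where none was called. Other called members were named after their values were seen. Some called members of the lists are not reported here. The windows of 250 bases before RefSeq starts (GRCm38.p6) were searched on both strands for 17 motifs, chosen after values were seen: AACCACA (RUNX), ACAATGG (SOX), AACAAT (a shorter SOX core that can overlap it), ACATTCC (TEAD), TGACTCA (AP-1), CAGGTG (E-box), GACCACCCA (GLI), TTCCNGGAA (STAT), CTTTGAT (TCF), TAATTA (homeobox), TATAAA (the core promoter box), GCGGGGGCG (EGR), TTGCNNCAA (CEBP), GTAAACA (FOXO) and, by name alone, NF-kappaB, ISRE and GRE motifs.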

Additional observations from a re-analysis of the deposited data

How the results depend on the processing

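The Ly6a difference kept its direction and its call under all 14 alternatives, at a log2 difference from 5.64 to 6.05. The count of higher genes was 220 and that of lower genes 377. DESeq2 gave 424 and 588. With the replicate block, edgeR gave 577 and 792. The numbers 2 and 3 are shared by the groups, but the labels do not say that a number marks an animal, litter or day. Deviations of labelled-negative 2 and labelled-positive 2 correlated at 0.303 over 13529 genes, a hint from the data and not from the design. Leaving out 1 library each gave from 143 to 2268 higher genes and from 317 to 2567 lower genes. The lone library of a group was then assumed to vary like the other group. The same range was 11 to 27 for called fibroblast progenitor genes and 13 to 25 for called bone matrix genes. Counts under the other factors, filters, voom, thinned counts and without the genes at 0 in a whole group, the last added after seeing the data, stayed within 1.5 times. Of 143 called genes that the naming rule gave, 96 kept their call in every alternative that tested them and 0 reversed. Without labelled-positive library 2 there were 29 that lost it, and without library 3 there were 31. Of 116 such genes not called, 20 were called by DESeq2, 23 with the replicate block, and 33 and 51 without labelled-negative library 2 or 3, so a gene that did not pass may pass in another fit. With 2 libraries a group and labelled-negative libraries that were less alike, small differences can be missed. Genes at 0 in a group have no fold beyond the bound set by 3 counts.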

Other observations

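Genes on none of the lists made up 160 of the 220 higher and 239 of the 377 lower genes. Ptx3, which encodes a secreted pattern recognition protein, was at 522 and 466 CPM in the labelled-negative libraries and at 117 and 146 CPM in the labelled-positive libraries (log2 difference 1.91, SE 0.21, edgeR adjusted p = 0.00726). Ecm1, a matrix protein gene, was at 1138 and 1716 against 355 and 423 CPM (log2 difference 1.88, SE 0.26, edgeR adjusted p = 0.0146). Sod3, the extracellular superoxide dismutase gene, was at 406 and 571 against 110 and 161 CPM, and Anxa8, an annexin gene, at 471 and 393 against 128 and 111 CPM. S100a4, a calcium-binding protein gene used as a fibroblast marker, was at 156 and 119 against 36.1 and 35.8 CPM. Ace, the gene of angiotensin-converting enzyme, was higher at 57.1 and 66.8 against 14.8 and 15.3 CPM, while Agt, the gene of the precursor of angiotensin, was lower at 17.7 and 25.8 against 62.4 and 95.0 CPM (log2 differences 2.04 and -1.85). The metallothionein genes Mt1 and Mt2 were higher with log2 differences of 1.52 and 1.69, but not without labelled-positive library 2 (edgeR adjusted p = 0.185 and 0.0881).

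Among the lower genes, Clec11a, which encodes the bone growth factor osteolectin, was at 194 and 232 against 775 and 593 CPM (log2 difference -1.68, SE 0.22, edgeR adjusted p = 0.0126). Gpx3, a secreted glutathione peroxidase gene, was at 84.4 and 84.3 against 277 and 241 CPM, and Enpp2, the gene of the enzyme that makes lysophosphatidic acid, at 52.1 and 52.5 against 143 and 137 CPM. Car3, a carbonic anhydrase gene, was at 22.8 and 14.37 against 81.1 and 79.1 CPM. These genes, too, kept the groups apart.

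Some genes differed between the library numbers under both labels. Eif2s3y, on the Y chromosome, had 517 and 0 counts in labelled-negative 2 and 3 and 74 and 0 in labelled-positive 2 and 3. Ddx3y had 687 and 1 against 129 and 0. Between the libraries numbered 2, Eif2s3y was at 34.9 CPM in labelled-negative and 4.17 CPM in labelled-positive. Ddx3y was at 46.4 and 7.27 CPM there. The sex of the samples is not given, and its part was not tested. The processed pseudogene Atp6v0c-ps2 had 4464 and 0 against 4340 and 0 counts, and its parent gene Atp6v0c 505 and 6715 against 3712 and 8033. In all, 5 genes had 0 counts in both libraries numbered 3 and at least 50 in both numbered 2, of which 4 were pseudogenes, and edgeR called 0 of them. The reverse pattern was found for 0 genes. The pseudogene Gm8355 had 340 and 700 counts in the labelled-negative libraries and 0 in both labelled-positive ones, at least 192-fold higher against 3 counts per library, and Pgam1-ps2 had 0 in both labelled-negative libraries and 127 and 220 in the labelled-positive ones, at least 54.2-fold lower.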
